A study of Homo sapiens with 22 samples.

Results

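KO1 and KO2 are 2 clones of RPTEC, a line of human renal proximal tubule epithelial cells immortalized with hTERT, in which SETD2 was knocked out with 1 CRISPR/Cas9 guide. Each clone was sequenced as 2 libraries, so the comparison rests on 4 of the 22 RNA-seq libraries of the series, taken by the labels KO1 and KO2 as deposited. Cells of both clones were kept in 2% serum without TGF-β, as were the 2 WT libraries quoted beside them, and were taken at 0 h. WT is the parental line, which was not cloned, and all cultures were held in G418, which selects for the hTERT construct. Both clones carry frameshifts on both SETD2 alleles by the study's sequencing, each grew from 1 sorted cell, and each KO therefore stands for a single clone. Other libraries quoted for level are those labelled KO2_Rescue (2% serum) and the lines Rescue1 and Rescue2 (regular media, 10% serum), in which SETD2 was put back by lentivirus. The labels do not say that the 2 libraries of a clone came from separate cultures, so their spread may be technical. The p-values rest on the spread between libraries of a group, taken over all 11 groups of the series. Beside the groups named above, these include WT treated with TGF-β in 2% serum. They also include WT transduced by lentivirus with an empty vector (eGFP), OCT2, PRRX1 or SOX2, each in 10% serum. The spread behind each test therefore draws on cells of other treatment and genotype than the clones.

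SETD2 is the histone methyltransferase that places trimethylation on lysine 36 of histone H3 behind elongating RNA polymerase II, and inactivating mutations of it recur in kidney cancers of the clear cell type. Clones that descend from single cells keep the chromatin states, mutations and copy numbers of their founders, so 2 clones with the same gene inactivated can differ at many other genes. The genes are grouped here by the programs that epithelial cells of the kidney are known to use or to acquire in culture, such as tubule transport, cell junctions, matrix secretion, inflammatory secretion and proliferation.

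The guide is shown because every difference described here lies between products of the same cut. It matched the plus strand of GRCh38 at chr3:47122997-47123016, in exon 3 of 21 of SETD2, and the capitals mark the PAM.
SETD2 sgRNA with PAM: tagaatatgatgaccctcgtCGG
SETD2 mRNA was present in both clones, at 1046 and 1130 normalised counts in the KO1 libraries and 1050 and 1052 in the KO2 libraries. The 2 ranges touched, and the log2 difference of 0.05 (SE 0.07) had an adjusted p of 0.69. The WT libraries held 1852 and 2061. A small sequence change need not remove the mRNA, so this level does not by itself check either label. In a supplementary table of the study the same libraries' values stand under the opposite clone names, and under those names every direction given here would read the other way round.

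The normalised counts of the 4 libraries summed to 16636313 and 16758645 in KO1 and 14848117 and 14571709 in KO2. KO1 replicate 2 stood apart. It had 14082 genes above 0 although it held the most reads of the 4 by an estimate from the smallest step between values, against 14709 to 16115 in the other 21 libraries of the series. It also listed at 0 a set of 34 genes that exceeded 100 normalised counts in at least 15 libraries, where KO1 replicate 1 listed 11 such genes and each KO2 library 8. Among these was SLC7A5, an amino acid transporter used by most dividing cells, at 356 and 0 in the KO1 libraries and 253 and 0 in the KO2 libraries. A value of 0 is therefore reported as listed at 0, since it can be a failed estimate, and results are given with and without KO1 replicate 2 where they rest on it. KO1 replicate 1 was not free of such zeros. It listed at 0 a set of 350 genes with at least 10 normalised counts in KO1 replicate 2, with 545 the other way round. In every other group these numbers lay between 116 and 265. Leaving out KO1 replicate 2 therefore does not remove all such zeros from KO1.

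The clones differed at many genes. Of 14585 genes tested, 1016 (6.97%) were called, with an adjusted p under 0.05 and a difference over 1 on the log2(normalised count + 1) scale, in limma's moderated test across all 22 libraries. Of these, 361 (2.48% of genes tested) were higher in KO1 and 655 (4.49%) were higher in KO2. The 2 libraries of each clone did not overlap in any called gene, but this was also so for 50.7% of all genes tested. Differences beyond 3 on the log2 scale were found for 78 genes higher in KO1 and 206 higher in KO2. Where a clone is listed at 0 the log2 difference depends on the added 1 and is neither a fold nor a bound. Protein-coding genes made up 905 of the 1016 calls, near their share of the genes tested (13010 of 14585). Without KO1 replicate 2, 835 genes were called (267 and 568), of which 582 were among the 1016. With equal totals for every library 1149 were called (260 and 889), a share higher in KO1 of 22.6% against 35.5%, as the median of all genes moved from -0.03 to -0.21. The number of calls rests on the spread borrowed from the other groups. A fit on the 4 KO libraries alone called 1 gene, with 1280 passing the fold at an unadjusted p under 0.05, and a fit on the deposited log2 values, whose scale compresses low genes, called 23.

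**Figure D1:**
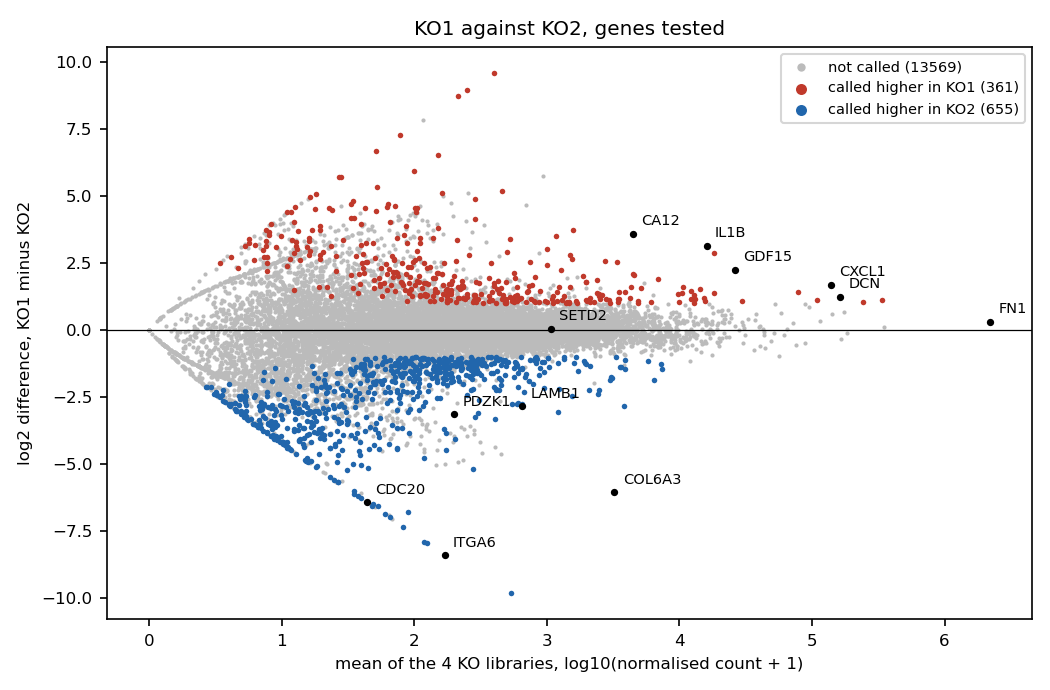
Log2 difference KO1 minus KO2 (y axis) against the mean of the 4 KO libraries (x axis, log10 of normalised count + 1) for 14585 genes, with 361 genes called higher in KO1 in red and 655 called higher in KO2 in blue. SETD2 lies at 0.05, COL6A3 at -6.06 and ITGA6 at -8.40, and more blue than red points lie at low levels.

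Among 2347 genes with a mean of at least 1000 normalised counts the clones stood further apart than the libraries of a clone. The median absolute log2 difference was 0.157 between the KO1 libraries and 0.093 between the KO2 libraries, and 0.258 to 0.306 between libraries of different clones. Differences over 2-fold were seen at 0.89% and 0.30% of these genes within KO1 and KO2, and at 5.33% to 7.24% between them.

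Among protein-coding genes with a mean of at least 500 normalised counts, 166 of 3843 (4.32%) were called with no overlap of the libraries, and the 12 with the largest differences in each direction were followed. The genes higher in KO1 included a carbonic anhydrase, secreted hormones and a cytokine. CA12, a carbonic anhydrase of the cell surface, reached 8084 and 8348 in KO1 and 814 and 569 in KO2 (log2 difference 3.59, SE 0.31, adjusted p = 2.3e-06). Both clones were far above WT, at 18.9 and 9.06. STC2, the secreted glycoprotein stanniocalcin, stood at 31546 and 32604 against 4652 and 4111 (2.87, adjusted p = 2.3e-07), with WT at 1103 and 1873. GDF15, a TGF-β family member secreted under cell stress, stood at 46059 and 40428 against 10408 and 7948 (2.25, adjusted p = 4.3e-08), with WT at 401 and 447. For STC2 and GDF15, too, KO2 lay between WT and KO1.

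The others higher in KO1 at this level were AHRR, the repressor of the aryl hydrocarbon receptor (3.40), IL1B, a proinflammatory cytokine (3.14), IGFN1 (2.78), THBD, the thrombin receptor thrombomodulin (2.55), the adhesion molecule NRCAM (2.54) and DIPK2A (2.42). These calls held when any 1 of the 4 libraries was left out. AHRR stood at 849 and 1080 in KO1 and 66.2 and 122 in KO2, where WT had 76.7 and 102. KO2 was therefore at the WT level for this gene and KO1 was not. NCAM1, a neural adhesion molecule, stood at 1533 and 1997 against 264 and 180 (3.00), but its call was lost without KO1 replicate 2 (2.81, adjusted p = 0.091), without KO2 replicate 1 (3.27, adjusted p = 0.052) and without KO2 replicate 2 (2.72, adjusted p = 0.12). IFI27, an interferon-induced gene, stood at 3260 and 2065 against 535 and 321 (2.64), and its call was lost without KO2 replicate 2 (2.28, adjusted p = 0.083).

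Genes higher in KO2 were led by matrix, adhesion and apical membrane genes. COL6A3, which encodes the α3 chain of collagen VI, stood at 90.4 and 98.6 in KO1 and at 6441 and 6274 in KO2, a 66.6-fold difference (log2 difference -6.06, SE 0.23, adjusted p = 8e-10). WT had 18.4 and 18.0. The chain was thus abundant in 1 clone and low in the other and in WT. Its partner chains differed less and were not called, with COL6A1 at 2153 and 2217 against 3834 and 3663 (-0.78) and COL6A2 at 10310 and 9693 against 15706 and 14005 (-0.57). COL6A3 ranged widely between Rescue1, at 469 and 443, and Rescue2, with a mean of 15507. The libraries labelled KO2_Rescue had a mean of 3925.

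PROM1, the apical protrusion glycoprotein CD133, stood at 976 and 896 in KO1 against 6219 and 7230 in KO2 (-2.84, adjusted p = 3.3e-08), with WT at 1741 and 1085. LAMB1, the laminin β1 chain, stood at 147 and 171 against 1119 and 1175 (-2.85, adjusted p = 7.7e-07), with WT at 2346 and 1192. For PROM1 the KO1 libraries lay just below WT, and for LAMB1 the KO2 libraries did. LRRN4 (-2.45) and KIF12, a kinesin of renal and hepatic epithelium (-2.33), shared a pattern in which KO2 was within 0.2 log2 units of WT on average and KO1 was lower. TENM4 (-3.05), TMEM163 (-2.75) and THY1, the surface protein CD90 (-2.75), were also higher in KO2 in every fit that left out 1 library.

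A further 3 of the 12 were less stable. PRSS23, a secreted protease, stood at 322 and 52.9 against 772 and 1023 (-2.75), which became -1.46 (adjusted p = 0.058) without KO1 replicate 2 and -2.55 (adjusted p = 0.056) without KO2 replicate 2, and -4.05 without KO1 replicate 1. TGFBI, a matrix protein named for its induction by TGF-β, stood at 86.3 and 277 against 999 and 1039 (-2.71). Its call was lost without KO1 replicate 1 (-1.87, adjusted p = 0.17), KO2 replicate 1 (-2.74, adjusted p = 0.099) or KO2 replicate 2 (-2.68, adjusted p = 0.12). RELN, a large secreted glycoprotein, stood at 626 and 987 against 3936 and 4198 (-2.37) and was called in none of the 4, whether without KO1 replicate 1 (-2.04, adjusted p = 0.15), KO1 replicate 2 (-2.70, adjusted p = 0.09), KO2 replicate 1 (-2.42, adjusted p = 0.14) or KO2 replicate 2 (-2.32, adjusted p = 0.17).

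**Figure D2:**
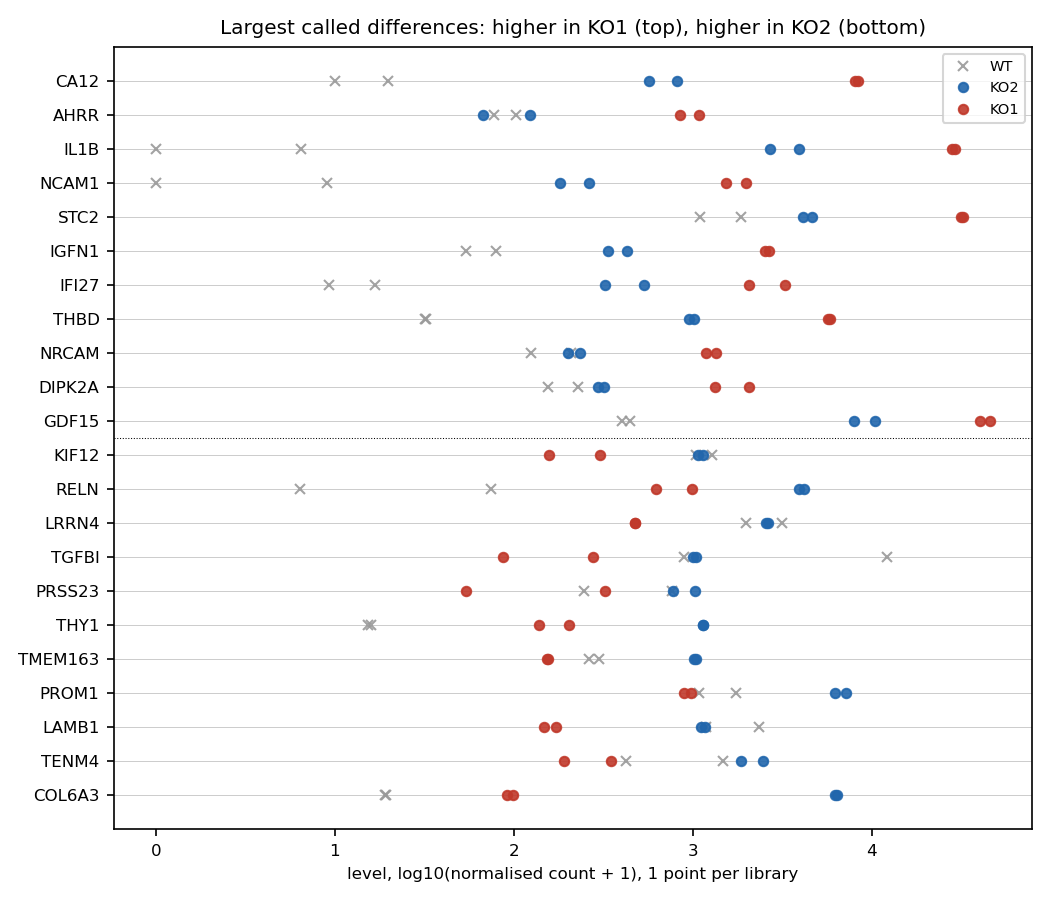
Levels of 22 of the 24 protein-coding genes with the largest called differences, 1 point per library on a log10(normalised count + 1) axis, for WT (grey crosses), KO1 (red) and KO2 (blue), with the genes higher in KO1 above the dotted line. KO2 lies with WT for AHRR and KIF12, both clones lie above WT for CA12 and IL1B, and COL6A3 is high in KO2 alone among these 3 groups.

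Read beside WT, the genes that separated the clones fell into several patterns. The 2 comparisons with WT share the WT libraries, and called 3653 of the 14585 genes for KO1 and 2378 for KO2. The genes below were chosen by the difference between the clones, which by itself makes some patterns frequent and others rare. The patterns were counted with all libraries only, so zeros listed in KO1 replicate 2 enter them. Of the 361 genes higher in KO1 than in KO2, 144 were called higher than WT in KO1 and not called in KO2, 78 were higher than WT in both clones, 58 were lower than WT in KO2 and not called in KO1, 12 were lower in both, and 69 were called in neither. Of the 655 genes higher in KO2, 318 were called lower than WT in KO1 and not called in KO2, and 135 were lower than WT in both. A further 79 were higher than WT in KO2 and not called in KO1, 19 were higher in both, 103 were called in neither, and 1 was lower in KO1 and higher in KO2. A call in 1 clone and none in the other does not show that they differ, and the clones were compared directly for that reason.

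Some genes were listed at the floor in 1 clone and measured in the other. The floor was 3 reads, converted to normalised counts for each library, and the other clone had to exceed 10 normalised counts in both libraries. By this rule 108 genes (0.922% of 11718 with both KO2 libraries over 10) were at the floor in KO1, of which 74 were exactly 0, and 46 (0.411% of 11192) were at the floor in KO2, of which 21 were exactly 0. Only 7 and 5 of them exceeded 100 in both libraries of the other clone. Without KO1 replicate 2 the rule was met by 219 and 171 genes. It then asks for 1 KO1 library in place of 2, so these numbers could not fall and the rise is no result about the clones.

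ITGA6, the laminin-binding integrin α6 chain, was listed at 0 in both KO1 libraries and at 331 and 342 in the KO2 libraries (log2 difference -8.40, adjusted p = 1.9e-13). WT had 1125 and 1170, and the means in Rescue1, Rescue2 and the libraries labelled KO2_Rescue were 1359, 1303 and 468. None of these groups shared the KO1 value. Its partner chain ITGB4 stood at 233 and 153 against 200 and 300, with WT at 3812 and 5723, and ITGB1 at 3948 and 3779 against 2640 and 2821 (0.50). ROR1, a WNT5A receptor, was listed at 0 in KO1 and at 242 and 230 in KO2 (-7.89, adjusted p = 9.7e-05), with 259 and 273 in WT. RCBTB1 was listed at 0 against 212 and 282 (-7.94), with 110 and 143 in WT. Libraries of the same group could also part for these genes. RCBTB1 stood at 182 and 0 in Rescue1, and ROR1 at 7.73 and 343 in the libraries labelled KO2_Rescue.

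ZNF469, a zinc finger gene with a role in collagen fibril structure, was listed at 0 in KO1 and in WT and reached 138 and 184 in KO2 (-7.33, adjusted p = 9.2e-06). LGR5, an R-spondin receptor and stem cell marker, was likewise listed at 0 in KO1 and WT and at 45.9 and 48.7 in KO2 (-5.59, adjusted p = 0.0067). CCNA2, cyclin A2, was at 0 in KO1 and at 315 and 38.4 in KO2 (-6.80), and its call was lost without KO2 replicate 1 (-5.30, adjusted p = 0.056). The highest entry at the floor in KO1, ENSG00000274429, has no symbol in the annotation and ranged from 493 to 1634 in KO2, with no call in any fit that left out 1 library (adjusted p 0.094 without KO1 replicate 1, 0.13 without KO1 replicate 2, 0.17 without KO2 replicate 1 and 0.12 without KO2 replicate 2).

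In the other direction 5 of the 6 highest genes were identifiers without a symbol, such as ENSG00000278326 at 558 and 1042 in KO1 and 0 in KO2 and WT (9.58, adjusted p = 0.00065). Reads of such entries can be shared with a near-identical copy, so their split is uncertain. ENSG00000285901 stood at 183 and 126 in KO1 (7.26, adjusted p = 0.0026). GZF1, a zinc finger gene, stood at 17.6 and 186 against 1.15 and 0 (5.33), and its call was lost without KO1 replicate 2 (3.67, adjusted p = 0.29), KO2 replicate 1 (5.88, adjusted p = 0.098) or KO2 replicate 2 (4.78, adjusted p = 0.20). Beyond the 6, and chosen after their values were seen, IL13RA2, the decoy receptor of interleukin 13, stood at 95.2 and 106 in KO1 and TREM1, a myeloid activating receptor, at 43.1 and 45.9, both at the floor in KO2 and WT. SERPINB2, the plasminogen activator inhibitor PAI-2, was at 59.8 and 44.6 in KO1 and listed at 0 in KO2 and WT (5.72, adjusted p = 2.6e-05).

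The rescue lines give other samples in which these genes can be read, with 10% serum in place of 2% for Rescue1 and Rescue2. Of the 108 genes at the floor in KO1, 43 exceeded 10 in both WT libraries, 49 in both libraries labelled KO2_Rescue, 37 in Rescue1 and 53 in Rescue2. Of the 46 genes at the floor in KO2, 8 exceeded 10 in both WT libraries, 5 in KO2_Rescue, 9 in Rescue1 and 8 in Rescue2. The libraries labelled KO2_Rescue had a mean of 827 for SETD2 mRNA, below both clones, whereas Rescue1 and Rescue2 had 10305 and 10105, so the label KO2_Rescue is quoted as a label only.

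**Figure D3:**
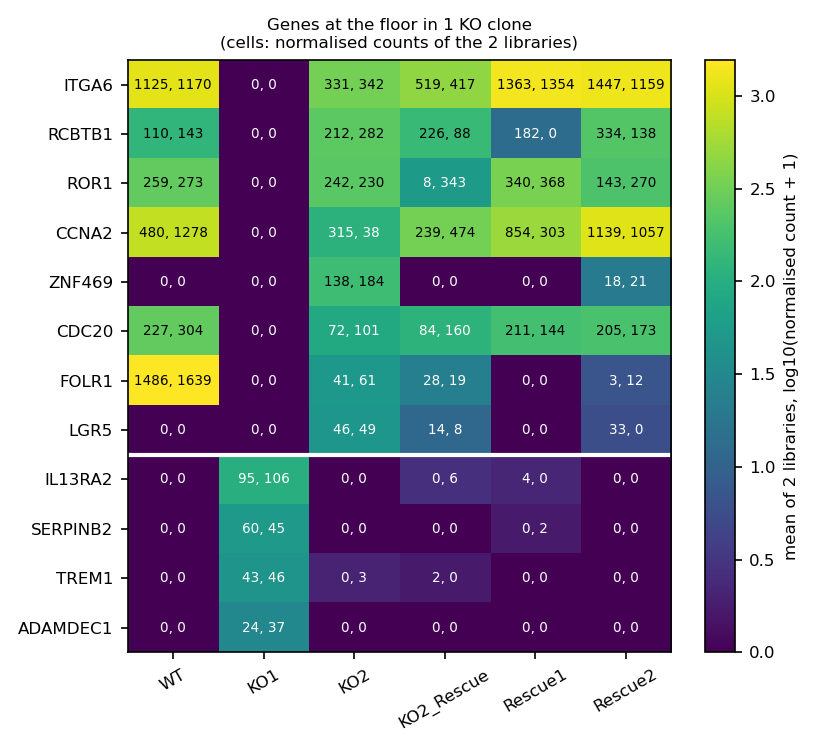
Normalised counts of both libraries (numbers) and their mean on a log10(normalised count + 1) colour scale for 12 genes at the floor in 1 KO clone, in 6 groups, with genes at the floor in KO1 above the white line. ITGA6 is listed at 0 in KO1 and is at least 331 in every library of the other groups drawn, while SERPINB2 is at 59.8 and 44.6 in KO1 and at or near 0 elsewhere.

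The called chemokine genes were higher in KO1, 28.6% of those tested against 2.48% of all genes. Of 14 chemokine genes tested, 4 were called higher in KO1 and 0 higher in KO2, with a median log2 difference of 0.55 against -0.03 over all genes tested, and the same numbers were called without KO1 replicate 2. CXCL1, a neutrophil chemoattractant, stood at 209253 and 212269 in KO1 and at 73071 and 58364 in KO2 (1.69, SE 0.11, adjusted p = 1.3e-07), with WT at 5689 and 4502. CXCL2 stood at 249 and 252 against 86.2 and 71.3 (1.66, adjusted p = 0.00042), and CXCL3 at 7545 and 7859 against 3024 and 2239 (1.56, adjusted p = 4.6e-05). The 3 genes are near neighbours of similar sequence, so reads could be divided among them. CCL2, which attracts monocytes, stood at 19293 and 16913 against 8737 and 7623 (1.15, adjusted p = 0.004), and fell under the fold threshold with equal library totals (0.96) and was not called with quantile normalization (adjusted p = 0.011, at the fold threshold). CXCL8 (0.72) and CXCL12 (0.28) were not called, and CXCL12 stood at 25801 and 26440 against 22547 and 20462.

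The promoters of the first 3 chemokines are shown because their genes differed to a like extent. Each line gives the 100 bases before the RefSeq start in GRCh38.p14, read on the gene's strand, for CXCL1 at chr4:73869293-73869392 (plus), CXCL2 at chr4:74099196-74099295 (minus) and CXCL3 at chr4:74038690-74038789 (minus), with capitals on a match to a κB motif, GGG, then any 2 bases, then TTTCC.
CXCL1: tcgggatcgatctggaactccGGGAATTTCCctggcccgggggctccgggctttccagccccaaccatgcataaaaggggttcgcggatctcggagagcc
CXCL2: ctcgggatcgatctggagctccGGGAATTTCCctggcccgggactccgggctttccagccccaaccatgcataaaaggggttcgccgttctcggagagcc
CXCL3: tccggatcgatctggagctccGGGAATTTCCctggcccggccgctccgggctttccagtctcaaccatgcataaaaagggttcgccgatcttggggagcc
The match began 79, 78 and 79 bases before the start. Searched on both strands over 250 bases, these letters were found in 1.73% of 35116 promoters and in 2.57% of genes tested that have a promoter in the RefSeq table. They were found in 3 of the 7 such chemokine and interleukin genes called higher in KO1, and in 7 of the 22 tested.

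Of 19 interleukin and colony stimulating factor genes tested, 5 were called higher in KO1 and 1 higher in KO2, with a median of 0.05, and 4 and 0 were called without KO1 replicate 2. With all libraries the shares were 26.3% higher in KO1 and 5.26% higher in KO2, against 2.48% and 4.49% of all genes. IL1B stood at 29431 and 28069 in KO1 and 3949 and 2701 in KO2 (3.14, SE 0.57, adjusted p = 0.0017), with WT at 0 and 5.5. CSF3, the granulocyte colony stimulating factor, stood at 842 and 912 against 153 and 86.1 (2.92, adjusted p = 0.0025) and was listed at 0 in WT. Both genes were thus on in both clones and several times higher in KO1. IL1A stood at 6911 and 6150 against 3522 and 2980 (1.01), at the edge of the fold threshold, and was under it without KO1 replicate 1 (0.92) or KO2 replicate 2 (0.89). IL33, an alarmin, stood at 274 and 288 against 21.1 and 17.6 (3.80), and its call was lost without KO2 replicate 2 (3.67, adjusted p = 0.054). TSLP stood at 37.3 and 69.3 against 14.5 and 9.03 (2.06) and was called only when KO1 replicate 1 was left out, with 1.62 (adjusted p = 0.18) without KO1 replicate 2, 2.37 (adjusted p = 0.06) without KO2 replicate 1 and 1.74 (adjusted p = 0.19) without KO2 replicate 2. IL18, higher in KO2, stood at 19.8 and 13.6 against 40.6 and 52.9 (-1.44) and lost its call without KO1 replicate 2 (-1.19, adjusted p = 0.14), KO2 replicate 1 (-1.63, adjusted p = 0.053) or KO2 replicate 2 (-1.26, adjusted p = 0.15). IL6, a member of the acute phase program, stood at 4751 and 5092 against 3037 and 2193 (0.93) and was not called.

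Of 17 complement genes tested, 2 were called higher in KO1 and 0 higher in KO2 (median 0.30), and without KO1 replicate 2 the numbers were 1 and 2. With all libraries the share higher in KO1 was 11.8%, against 2.48% of all genes. C3, the central complement component, stood at 113247 and 113316 against 44554 and 41316 (1.40, adjusted p = 5.2e-06), with WT at 2747 and 3286. CFB, complement factor B, stood at 12.9 and 57.6 against 0 and 2.80 (3.87), which became 2.84 (adjusted p = 0.11) without KO1 replicate 2 and 2.91 (adjusted p = 0.12) without KO2 replicate 1. Of 48 interferon-stimulated genes, 5 were called higher in KO1 and 1 higher in KO2 (median 0.46), and 3 and 1 without KO1 replicate 2. For this list the shares with all libraries were 10.4% and 2.08%, against 2.48% and 4.49% of all genes. ISG15, a ubiquitin-like modifier, stood at 1831 and 1643 against 779 and 538 (1.42, adjusted p = 2.3e-05), and IFIT2, which binds viral RNA, went the other way at 21.5 and 43.3 against 175 and 173 (-2.47, adjusted p = 0.0001). Of the 48 genes, 36 had a positive difference and 12 a negative one, against 6872 and 7565 of all genes tested. The list thus leaned to KO1, but not every gene did. OASL stood at 204 and 142 against 29.6 and 25.4 (2.59) and lost its call without KO2 replicate 2 (2.48, adjusted p = 0.075). OAS1 stood at 104 and 342 against 37.8 and 35.1 (2.35) and lost it without KO1 replicate 2 (1.49, adjusted p = 0.15), KO2 replicate 1 (2.40, adjusted p = 0.056) or KO2 replicate 2 (2.29, adjusted p = 0.081). MX1, an antiviral GTPase, stood at 243 and 84.1 against 80.1 and 59.4 and was not called.

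The called mitosis genes were lower in KO1 than in KO2. Of 38 tested, 12 were called higher in KO2 (31.6% against 4.49% of all genes) and 0 higher in KO1, with a median of -0.78. Without KO1 replicate 2, 11 were called higher in KO2 and the median was -1.07. Over the 38 genes the normalised counts summed to 4101 and 4076 in KO1, 6772 and 7411 in KO2 and 30139 and 40842 in WT. In bulk RNA, fewer cells in mitosis and less of these mRNAs per cell cannot be told apart.

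CDC20, an activator of the anaphase-promoting complex, was listed at 0 in both KO1 libraries and at 71.7 and 101 in KO2 (-6.43, adjusted p = 3.4e-07), with 227 and 304 in WT. CENPA, the centromeric histone H3 variant, was listed at 0 against 44.1 and 18.7 (-4.90, adjusted p = 0.0001), with 134 and 64.2 in WT. CENPE, a kinetochore motor, stood at 16.1 and 24.8 against 52.0 and 85.6 (-1.69), and BUB1B, a spindle checkpoint kinase, at 172 and 138 against 419 and 403 (-1.41, adjusted p = 3.7e-05). The calls of these 4 held whichever library was left out, and those of the remaining 8 did not. CCNA2 has been given above. BUB1 was listed at 0 against 83.6 and 4.17 (-4.39), with its call lost without KO1 replicate 2 (-4.39, adjusted p = 0.055) and without KO2 replicate 1 (-2.37, adjusted p = 0.15) and a value of -6.40 without KO2 replicate 2. MKI67, the proliferation marker Ki-67, stood at 202 and 67.2 against 264 and 1105 (-2.20), and its call was lost without KO1 replicate 2 (-1.42, adjusted p = 0.12) or KO2 replicate 2 (-1.17, adjusted p = 0.14). CDK1 stood at 226 and 153 against 377 and 436 (-1.12), and was -0.84 without KO1 replicate 2. CCNB1, cyclin B1, differed by -0.96 and was not called.

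The promoters of 4 of these genes are shown because cell cycle genes are known to share the CHR, with the letters TTTGAA, and the CCAAT box, and capitals mark both (ATTGG is CCAAT on the other strand). They lie at chr1:43358881-43358980 (CDC20, plus), chr2:26785956-26786055 (CENPA, plus), chr10:128126424-128126523 (MKI67, minus) and chr1:197146670-197146769 (ASPM, minus), each the 100 bases before a RefSeq start in GRCh38.p14.
CDC20: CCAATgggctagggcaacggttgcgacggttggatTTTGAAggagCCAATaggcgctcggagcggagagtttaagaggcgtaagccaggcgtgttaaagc
CENPA: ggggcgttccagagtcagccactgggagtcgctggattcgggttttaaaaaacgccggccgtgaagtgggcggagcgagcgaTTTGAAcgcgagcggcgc
MKI67: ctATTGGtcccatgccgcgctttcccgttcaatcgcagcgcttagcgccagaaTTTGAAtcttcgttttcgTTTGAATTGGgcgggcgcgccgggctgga
ASPM: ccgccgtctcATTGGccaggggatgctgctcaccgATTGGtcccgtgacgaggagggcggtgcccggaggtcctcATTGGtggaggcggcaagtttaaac
Over 250 bases and both strands, TTTGAA was found in 7 and CCAAT in 9 of the 11 called mitosis genes with a promoter in the table, against 12.8% and 41.8% of all genes tested and 13.3% and 32.0% of all 35116 promoters. Among the 31 mitosis genes tested that have one, 16 held TTTGAA and 23 held CCAAT. Matches farther than 100 bases from the start are counted but not shown, and in MKI67 a TTTGAA overlaps an ATTGG.

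**Figure D4:**
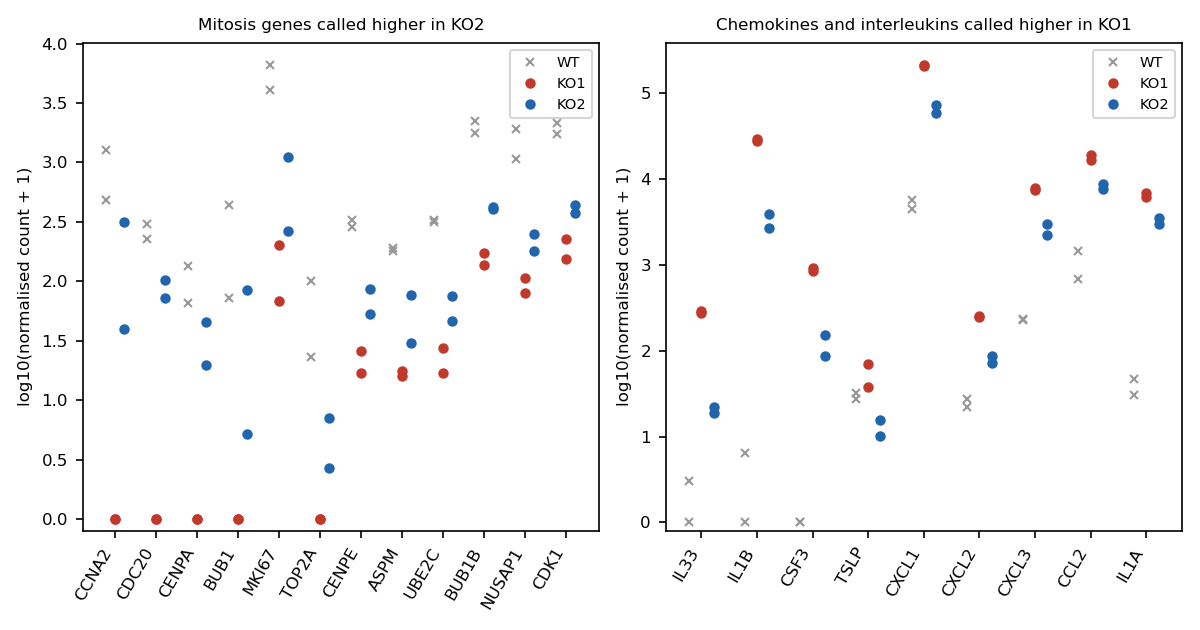
Levels per library, log10(normalised count + 1), of the 12 mitosis genes called higher in KO2 (left) and the 9 chemokine and interleukin genes called higher in KO1 (right), for WT (crosses), KO1 (red) and KO2 (blue). In the left panel the order is WT, KO2, KO1 from high to low for most genes, with CDC20 at 0 in KO1, and in the right panel KO1 is highest throughout.

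Of 35 DNA replication genes tested, 1 was called higher in KO1 (2.86%, near the 2.48% of all genes) and 0 higher in KO2 (median -0.17), and without KO1 replicate 2 the numbers were 0 and 1. The called gene, the ligase LIG1, stood at 141 and 215 against 76.9 and 34.2 (1.74), and its call was lost without KO1 replicate 1 (2.05, adjusted p = 0.05), KO1 replicate 2 (1.43, adjusted p = 0.22) or KO2 replicate 2 (1.17, adjusted p = 0.32), and with equal library totals (1.56, adjusted p = 0.061). PCNA, the replication clamp, stood at 121 and 168 against 5.41 and 69.7, and MCM2 at 9.55 and 76.0 against 15.2 and 5.63. Neither was called, and the libraries of a clone were far apart. Of 28 p53 targets and cell cycle inhibitors, 2 were called higher in KO1 (7.14% against 2.48% of all genes) and 1 higher in KO2 (3.57% against 4.49%). CDKN2D, an inhibitor of CDK4 and CDK6, stood at 215 and 172 against 74.6 and 84.2 (1.27, adjusted p = 0.0042), and GDF15 was the other. SESN1, a p53 target of the stress response, stood at 305 and 286 against 613 and 662 (-1.11, adjusted p = 0.00065), and at -0.96 once trends with transcript length and GC content were removed. CDKN1A, the inhibitor p21, stood at 12318 and 11120 against 9866 and 9379 (0.28) and was under the fold threshold.

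Of 39 epithelial junction and surface genes tested, 5 were called higher in KO2 (12.8% against 4.49% of all genes) and 1 higher in KO1 (2.56% against 2.48%), with a median of -0.53. Without KO1 replicate 2 the numbers were 6 and 1. EPCAM, an epithelial adhesion molecule, stood at 296 and 218 against 901 and 838 (-1.77, adjusted p = 1.3e-07), with WT at 3050 and 2764. KRT8, a keratin of simple epithelia, stood at 4558 and 3952 against 10534 and 9784 (-1.26, adjusted p = 2e-08), with WT at 15741 and 16325. For both, KO2 lay between KO1 and WT. CLDN2, a claudin of the proximal tubule, stood at 7.39 and 9.38 against 16.2 and 30.7 (-1.33) and lost its call without KO2 replicate 2 (-0.89, adjusted p = 0.06). CDH1, E-cadherin, was at or near 0 in all 4 libraries, at 25.5 and 47.5 in WT, and KRT18 and CLDN4 were not called (0.78 and -0.69).

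Of 30 mesenchymal genes tested, 4 were called higher in KO2 and 1 higher in KO1 (median 0.29), and 3 and 1 without KO1 replicate 2. With all libraries the shares were 13.3% higher in KO2 and 3.33% higher in KO1, against 4.49% and 2.48% of all genes. DCN, the matrix proteoglycan decorin, stood at 234809 and 221606 in KO1 and 98373 and 94978 in KO2 (1.24, SE 0.18, adjusted p = 0.00022), with WT at 478 and 289. Under quantile normalization its difference was 0.67 and it was not called. SPP1, osteopontin, stood at 1494 and 1307 against 4660 and 4971 (-1.78, adjusted p = 8e-10), and PDPN, podoplanin, at 1516 and 1279 against 4942 and 4447 (-1.75, adjusted p = 0.0019) with 0 in both WT libraries. The mesenchymal genes thus did not move one way. TAGLN, an actin-binding protein of smooth muscle, stood at 3074 and 2491 against 10076 and 10103 (-1.87) and lost its call without KO1 replicate 2 (-1.71, adjusted p = 0.073), KO2 replicate 1 (-1.87, adjusted p = 0.054) or KO2 replicate 2 (-1.86, adjusted p = 0.065). VIM, vimentin, stood at 76085 and 72275 against 102935 and 102488 (-0.47), and FN1, fibronectin, at 2330092 and 2537590 against 1958267 and 1958182 (0.31). The FN1 mRNA alone held 13.2% to 15.1% of the counts in these libraries. CDH2 (N-cadherin) stood at 55.1 and 245 against 765 and 703 (-2.64, SE 3.32), a gap that did not pass the test.

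Among 21 transcription factors of mesenchymal change and mesoderm, 3 were called higher in KO2 (14.3% against 4.49% of all genes) and 0 higher in KO1 (median -0.30). SOX4 stood at 1923 and 2254 against 5624 and 5850 (-1.46, adjusted p = 1.9e-06), with WT at 5459 and 4002. FOXF2, a mesodermal forkhead factor, stood at 76.5 and 67.6 against 240 and 202 (-1.60) and lost its call without KO2 replicate 1 (-1.48, adjusted p = 0.062). FOXD1, a factor of the renal stroma, was near the floor, at 2.07 and 0 against 7.95 and 7.27 (-2.29), and lost it without KO1 replicate 2 (-1.48, adjusted p = 0.30), KO2 replicate 1 (-2.24, adjusted p = 0.16) or KO2 replicate 2 (-2.35, adjusted p = 0.15). The same 3 made up the calls among 32 SOX and FOX genes, a share of 9.38%. ZEB2, a repressor of epithelial genes, stood at 2029 and 2044 against 2236 and 2280 and was not called.

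**Figure D5:**
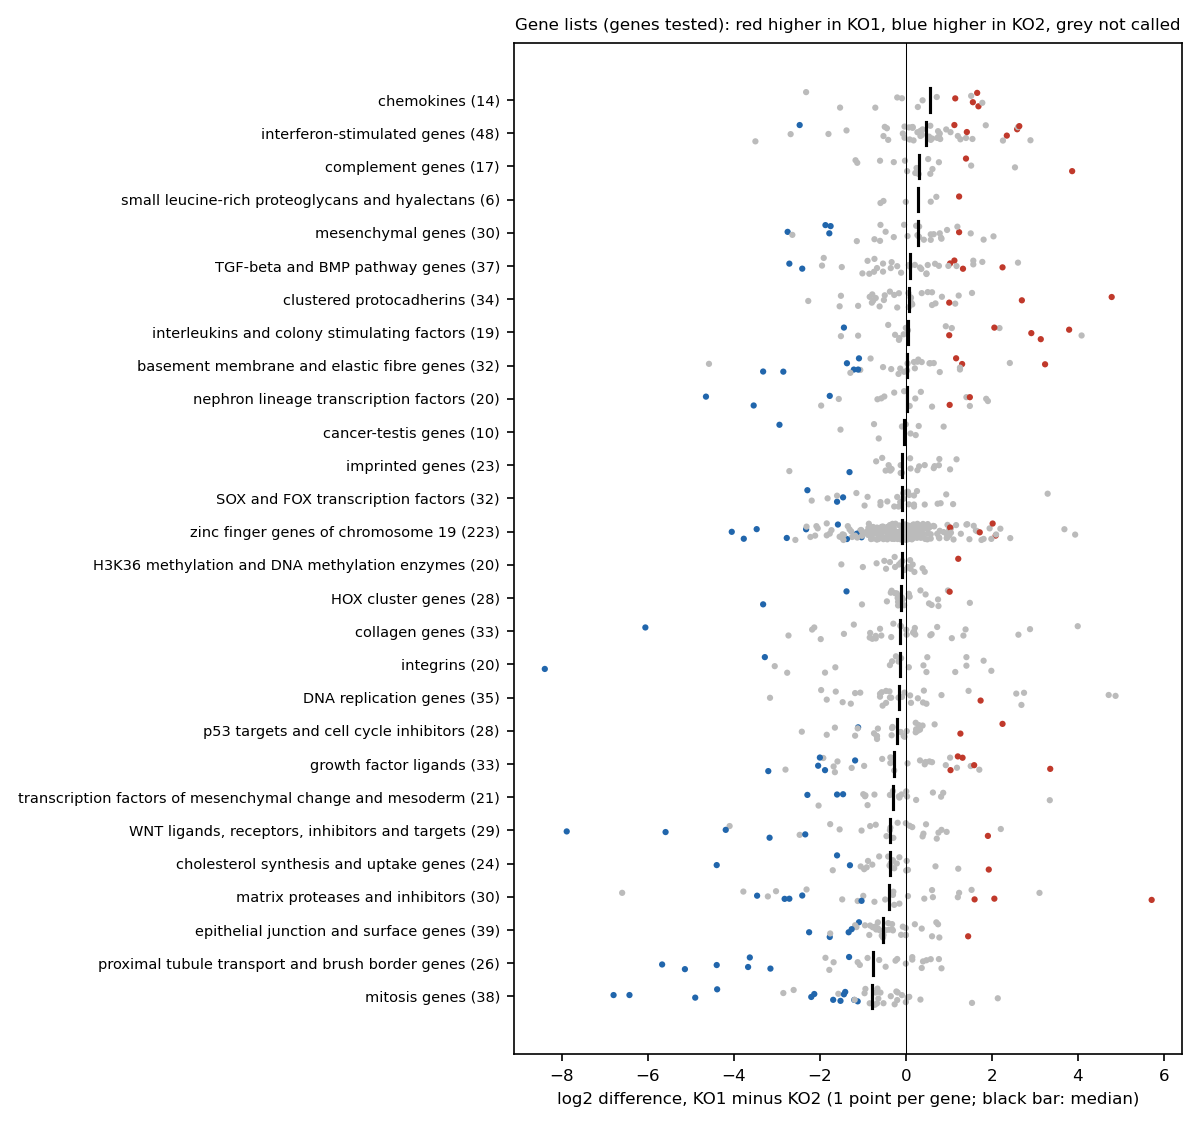
Log2 difference KO1 minus KO2 (x axis) of each tested gene in 28 lists (rows, number of genes tested in parentheses), with called genes in red (higher in KO1) or blue (higher in KO2) and the list median as a black bar. Medians run from -0.78 for mitosis genes to 0.55 for chemokines. The mitosis and proximal tubule transport lists hold called genes in blue alone, as do several lists with 1 to 3 calls, such as integrins.

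Matrix and basement membrane genes differed gene by gene. Of 32 basement membrane and elastic fibre genes, 6 were called higher in KO2 and 3 higher in KO1 (median 0.04), and 6 and 2 without KO1 replicate 2. With all libraries the shares were 18.8% higher in KO2 and 9.38% higher in KO1, against 4.49% and 2.48% of all genes. LAMB3, the β3 chain of an epithelial laminin, was higher in KO1, at 3430 and 3512 against 1866 and 1275 (1.17), and was 0.90 without KO2 replicate 2 and 0.99 with equal library totals. EFEMP1 (fibulin 3) stood at 37.9 and 136 against 759 and 696 (-3.32, adjusted p = 2.3e-05) and LTBP4 was also higher in KO2, whereas FBLN1 (fibulin 1) stood at 779 and 912 against 342 and 337 (1.31, adjusted p = 0.00027). FBLN5 (fibulin 5) stood at 66.4 and 255 against 16.2 and 10.3 (3.24) and lost its call without KO1 replicate 2 (2.28, adjusted p = 0.12) or KO2 replicate 2 (2.94, adjusted p = 0.095). LOXL1, a cross-linking enzyme, stood at 42.8 and 65.6 against 164 and 94.1 (-1.21) and lost it without KO1 replicate 1 (-0.91, adjusted p = 0.11) or KO2 replicate 1 (-0.82, adjusted p = 0.19). Members of the fibulin family were therefore found on both sides, as were laminin chains, LAMB1 having been given above.

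Of 33 collagen genes, COL6A3 was the 1 called gene (3.03%, under the 4.49% of all genes higher in KO2), and the median was -0.13. COL1A1 stood at 1042 and 815 against 3751 and 3520 (-1.98, SE 0.86) and did not pass the test (adjusted p = 0.14), and the WT libraries lay at 11919 and 532. COL4A1 stood at 20.4 and 8.49 against 74.5 and 54.6 (-2.18) and did not pass either. Among 6 small proteoglycans DCN was the 1 called gene (16.7%, against 2.48% of all genes higher in KO1). Of 20 integrins, 2 were called higher in KO2 (10.0% against 4.49% of all genes) and 0 higher in KO1. ITGAX, the αX chain of leukocyte integrins, stood at 7.52 and 10.8 against 121 and 77.0 (-3.28) and lost its call without KO2 replicate 1 (-2.96, adjusted p = 0.089). ITGA6 was the other.

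Of 30 matrix proteases and inhibitors, 3 were called higher in KO1 and 5 higher in KO2 (median -0.39), and 3 and 2 without KO1 replicate 2. With all libraries the shares were 10.0% higher in KO1 and 16.7% higher in KO2, against 2.48% and 4.49% of all genes. PLAT, tissue plasminogen activator, stood at 7722 and 6920 against 1810 and 1685 (2.06, adjusted p = 5.3e-08), with WT at 300.4 and 395. SERPINB2, which inhibits this protease, has been given above, so a plasminogen activator and an inhibitor of it were both higher in KO1. The 5 higher in KO2 were less stable. ADAMTS15 stood at 30.5 and 0.852 against 99.5 and 69.7 (-3.46), which was -5.51 without KO1 replicate 1, -1.42 without KO1 replicate 2 and -3.21 with the call lost (adjusted p = 0.062) without KO2 replicate 1. TIMP3, a metalloprotease inhibitor, stood at 25.8 and 14.8 against 131 and 137 (-2.71) and lost its call without KO1 replicate 2 (-2.33, adjusted p = 0.12), KO2 replicate 1 (-2.74, adjusted p = 0.084) or KO2 replicate 2 (-2.68, adjusted p = 0.11). MMP9 was listed at 0 in KO1 and at 7.45 and 4.93 in KO2 (-2.82), with 1126 and 722 in WT, and lost its call without KO1 replicate 1 (-2.82, adjusted p = 0.07), KO1 replicate 2 (-2.82, adjusted p = 0.099), KO2 replicate 1 (-2.57, adjusted p = 0.15) or KO2 replicate 2 (-3.08, adjusted p = 0.094).

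Growth factor genes were divided between the clones. The list counts FGF12 and FGF14, intracellular FGF homologues that are not secreted ligands, and both are among its calls higher in KO2. Of 33 ligand genes, 5 were called in each direction (15.2%, against 2.48% of all genes higher in KO1 and 4.49% higher in KO2, median -0.27), and without KO1 replicate 2 the numbers were 4 higher in KO1 and 3 higher in KO2. NRG1, a ligand of ERBB receptors, stood at 2300 and 2151 against 867 and 631 (1.59, adjusted p = 2.3e-06), with WT at 2990 and 3009. BDNF, a neurotrophin, stood at 711 and 627 against 255 and 279 (1.32, adjusted p = 0.0014). FGF1 stood at 20.2 and 21.4 against 58.7 and 126 (a 3.99-fold difference, adjusted p = 0.00051), with WT at 796 and 441, and NTF3, another neurotrophin, at 9.26 and 6.55 against 28.0 and 35.1 (-1.88, adjusted p = 0.0042). ANGPTL4, an inhibitor of lipoprotein lipase, stood at 400 and 358 against 35 and 36.6 (3.36), a wide gap between close libraries that was called in none of the fits without KO1 replicate 1 (3.28, adjusted p = 0.11), KO1 replicate 2 (3.44, adjusted p = 0.13), KO2 replicate 1 (3.33, adjusted p = 0.15) or KO2 replicate 2 (3.39, adjusted p = 0.16). Its SE of 1.07 draws on the spread in all 11 groups. MDK, midkine, stood at 388 and 267 against 138 and 139 (1.21) and was 0.94 without KO1 replicate 1. FGF12, an intracellular FGF homologue, stood at 43.8 and 20.2 against 119 and 134 (-2.04) and lost its call without KO1 replicate 2 (-1.50, adjusted p = 0.082) or KO2 replicate 2 (-1.96, adjusted p = 0.063).

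Of 29 WNT pathway genes tested, 5 were called higher in KO2 and 1 higher in KO1 (median -0.36), and 6 and 1 without KO1 replicate 2. With all libraries the shares were 17.2% higher in KO2 and 3.45% higher in KO1, against 4.49% and 2.48% of all genes. WNT2 stood at 11257 and 10348 in KO1 and 3191 and 2595 in KO2 (1.91, SE 0.38, adjusted p = 0.0029), and was listed at 0 in WT. RNF43, a ubiquitin ligase that removes frizzled receptors, was listed at 0 in KO1 and at 16.5 and 18.0 in KO2 (-4.19, adjusted p = 4.8e-05), with 146 and 194 in WT. FZD10, a frizzled receptor, stood at 2.69 and 0 against 19 and 14.1 (-3.17, adjusted p = 0.0037), and the value was -2.23 without KO1 replicate 2. The ligand WNT7A stood at 22.1 and 10.3 against 80.8 and 80.5 (-2.34, adjusted p = 2.1e-05), so called ligands lay on both sides. ROR1 and LGR5, given above, were the others. WNT5A, a ligand of noncanonical signalling, stood at 20323 and 23575 against 11621 and 10990 (0.95) and was just under the fold threshold, with WT at 969 and 398.

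Of 37 TGF-β and BMP pathway genes, 4 were called higher in KO1 (10.8% against 2.48% of all genes) and 2 higher in KO2 (5.41%, near the 4.49% of all genes), with a median of 0.09. CHRDL1, a BMP antagonist, stood at 262 and 246 against 96.6 and 105 (1.33, adjusted p = 0.003). TGFB1, a TGF-β ligand, stood at 2790 and 2835 against 1404 and 1182 (1.13, adjusted p = 0.00036), and was 0.94 with equal library totals, while the ligand TGFB2 stood at 449 and 522 against 777 and 847 (-0.74) and was not called. SMAD7, the inhibitory SMAD, stood at 1665 and 2113 against 797 and 1051 (1.03), and was under the threshold without KO1 replicate 2 (0.86) or KO2 replicate 1 (0.84). ID1, a BMP target, was listed at 0 in KO1 and at 3.07 and 5.94 in KO2 (-2.41, adjusted p = 0.0016), with 73.8 and 96.7 in WT. Its KO2 values were close to the floor, and it was not called with a pseudocount of 5 (-0.91). TGFBI and GDF15 were given above.

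Proximal tubule transport and brush border genes were lower in KO1 where they were called. Of 26 tested, 7 were called higher in KO2 (26.9% against 4.49%) and 0 higher in KO1, with a median of -0.75. Without KO1 replicate 2, 5 were called and the median was -0.51. FOLR1, the folate receptor α, was listed at 0 in KO1 and at 40.7 and 61.5 in KO2 (-5.67, adjusted p = 7.7e-07), against 1486 and 1639 in WT. SLC3A1, a subunit of the cystine transporter, stood at 4.62 and 0 against 64.5 and 106 (-5.14, adjusted p = 6.4e-05), with WT at 210 and 167. SLC17A1, a urate and phosphate transporter, was listed at 0 against 24.0 and 16.8 (-4.40, adjusted p = 2.5e-05), with WT at 192 and 208. KO2 thus kept a low level of genes that were at or near the floor in KO1. PDZK1, the scaffold of apical transporters, and SLC17A3 were also higher in KO2 in every fit that left out 1 library. ALPL, an alkaline phosphatase, stood at 3.39 and 0 against 25.3 and 25.9 (-3.67) and lost its call without KO1 replicate 2 (-2.60, adjusted p = 0.13), KO2 replicate 1 (-3.68, adjusted p = 0.059) or KO2 replicate 2 (-3.65, adjusted p = 0.073). CDH6, a cadherin of the proximal tubule, stood at 146 and 167 against 306 and 502 (-1.32) and lost its call without KO1 replicate 1 (-1.23, adjusted p = 0.08), KO1 replicate 2 (-1.42, adjusted p = 0.067) or KO2 replicate 2 (-0.97, adjusted p = 0.21). The summed normalised counts of the list, 3830 and 3862 in KO1 and 4164 and 4148 in KO2, were close. CUBN, the endocytic receptor cubilin, stood at 333 and 154 in KO1, was not called (0.48, SE 0.98), and its partner LRP2 was at most 2.29 in all 4 libraries and not tested.

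Nephron lineage transcription factors were called on both sides, 2 of 20 higher in KO1 and 3 higher in KO2. IRX5 stood at 86.8 and 95.6 against 30.8 and 32.9 (1.49, adjusted p = 0.00045), with WT higher than both clones. IRX2, of the same Iroquois family, stood at 2.44 and 0 against 29.6 and 69.9 (-4.65, adjusted p = 0.00097). EMX2, needed for kidney formation, stood at 120.3 and 118 against 397 and 421 (-1.77, adjusted p = 0.00019). HOXD11 stood at 1419 and 1540 against 723 and 730 (1.02) and was under the threshold without KO1 replicate 2 (0.97). PAX8, the renal lineage factor, stood at 6382 and 6561 against 5056 and 5096 (0.35) and was not called. Of 28 HOX genes, HOXD11 was called higher in KO1 (3.57%) and HOXB13 and HOXA7 higher in KO2 (7.14%). HOXB13 stood at 3.80 and 0 against 24.4 and 17.8 (-3.32) and lost its call without KO1 replicate 2 (-2.18, adjusted p = 0.061). HOXA7 stood at 25.9 and 16.6 against 52.0 and 60.1 (-1.38) and lost it without KO1 replicate 2 (-1.08, adjusted p = 0.15), KO2 replicate 1 (-1.49, adjusted p = 0.075) or KO2 replicate 2 (-1.28, adjusted p = 0.14).

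Of 24 cholesterol synthesis and uptake genes, 3 were called higher in KO2 (12.5% against 4.49% of all genes) and 1 higher in KO1 (4.17% against 2.48%). The median was -0.37, and -0.41 without KO1 replicate 2. SREBF2, the regulator of sterol genes, stood at 36.2 and 71.1 against 118 and 208 (-1.60) and lost its call without KO1 replicate 1 (-1.13, adjusted p = 0.089) or KO2 replicate 2 (-1.20, adjusted p = 0.14). MVK, mevalonate kinase, stood at 40.1 and 73.9 against 126 and 146 (-1.30) and was -0.87 without KO1 replicate 1. EBP, a sterol isomerase, went the other way at 90.6 and 77.9 against 17.6 and 25.8 (1.93) and lost its call without KO2 replicate 1 (1.66, adjusted p = 0.057).

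Genes tied to chromatin and to clonal choice of expression were read against the same shares of all genes, 2.48% higher in KO1 and 4.49% higher in KO2. Of 20 H3K36 methylation and DNA methylation enzymes and related genes, 1 was called, KDM2B, an H3K36 demethylase, at 365 and 427 against 225 and 127 (1.22). Its call was lost without KO1 replicate 2 (1.11, adjusted p = 0.12) or KO2 replicate 2 (0.81, adjusted p = 0.23). NSD1, an H3K36 dimethyltransferase, stood at 2386 and 2720 against 2597 and 2793 and was not called. Of 34 clustered protocadherins, 3 were called higher in KO1 (8.82%) and 0 higher in KO2. Transcripts of the cluster share their last exons, so the split of reads among them is uncertain. PCDHGB5 stood at 1667 and 2048 against 933 and 896 (1.01) and fell under the threshold without KO1 replicate 2 (0.87) or KO2 replicate 2 (0.98), and PCDHGB1 at 71.0 and 100.1 against 20.5 and 6.99 (2.70) lost its call without KO2 replicate 2 (1.99, adjusted p = 0.096). Of 223 zinc finger genes of chromosome 19, 4 were called higher in KO1 (1.79%) and 9 higher in KO2 (4.04%), shares near those over all genes. Among them ZNF826P stood at 3.92 and 3.03 against 55.8 and 41.6 (-3.47, adjusted p = 4.8e-06), and ZNF175 was listed at 0 against 14.7 and 16.5 (-4.05, adjusted p = 0.00028). Of 23 imprinted genes, PEG10 was called, at 342 and 334 against 943 and 744 (-1.31, adjusted p = 2.1e-06), with WT at 11034 and 10200. Of 10 cancer-testis genes tested, SPANXD was called at 0 against 5.43 and 8.21 (-2.94), as 1 of several near-identical copies, and it was called in none of the fits without KO1 replicate 1 (adjusted p = 0.077), KO1 replicate 2 (0.11), KO2 replicate 1 (0.087) or KO2 replicate 2 (0.17).

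The differences were spread over the chromosomes. The median log2 difference of a nuclear chromosome's genes lay between -0.20 (chromosome 13) and 0.12 (chromosome 19). The 13 genes of the mitochondrial genome, treated at the end, had a median of 0.64. In 12648 runs of 51 neighbouring tested genes the median lay between -0.59 and 0.46, and 15 runs exceeded 0.5 in size. The lowest runs overlapped on chromosome 9, from 37800554 to 71911193, and the highest on chromosome 19, from 13150411 to 16690023 (GRCh38).

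Markers of the labelled cell type and of other cell types were read in the same libraries. The 14 proximal tubule markers summed to 9603 to 10203 normalised counts in KO1 and 8558 to 8753 in KO2, with 9 of them over 100 in a KO library, but HNF4A was listed at 0 and LRP2 and SLC34A1 were at or near 0 in both clones. The 10 fibroblast and pericyte markers summed to 223514 to 236667 in KO1 and 100133 to 103740 in KO2, a sum made largely of DCN, while COL3A1 was at most 1.39. The 10 leukocyte markers summed to 1930 to 2315 and 374 to 478, mostly NCAM1, while CD3E, MS4A1 and ITGAM were listed at 0. Endothelial, distal nephron and podocyte markers summed to at most 356 in any of the 4 libraries, with CDH5, EMCN, CLDN5, UMOD, AQP2 and NPHS1 listed at 0. These lists were not empty. Over 100 in a KO library were 1 of 10 endothelial markers (KDR) and 1 of 10 distal nephron markers (CALB1). The same held for 2 of 5 podocyte markers (PODXL and SYNPO).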

How the data were processed

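RNA from RPTEC was sequenced with a stranded mRNA kit and the authors quantified reads against the Ensembl cDNA of GRCh38 with Salmon 1.9.0 and used DESeq2 1.26.0, per the paper and the submitters' processing notes. The authors deposited 1 table of log2 values for 36859 genes in 22 libraries. The transformation is not given in the sources used here. The values were read as variance-stabilized, since all libraries share the lowest value, and were inverted to normalised counts. This inversion limits the precision of low values. Symbols and positions came from GENCODE release 44. limma 3.58.1 (R 4.3.3, variance trend) was applied to log2(normalised count + 1), with a mean for each of 11 groups, for 14585 genes with at least 10 normalised counts in at least 2 libraries, and p-values were adjusted by Benjamini-Hochberg over these genes. Genes named were SETD2, the 12 largest called differences per direction at a mean of at least 500, the 6 highest at the floor, and up to 4 called members per direction and up to 4 defining members of each of 28 lists. Log2 differences against values listed at 0 depend on the pseudocount of 1, and the lower bounds on folds that the plan foresaw are not printed, because genes used by most cells are also listed at 0. Results for some single genes are not reported here. Members and lists were chosen with earlier results of these data known. Promoters and their starts are from RefSeq (GRCh38.p14), and the sgRNA from the study's supplement was matched to GRCh38. Replicate numbers were not treated as pairs. The alternatives were pseudocounts of 0.5 and 5, other filters, quantile normalization, equal totals, other sets of libraries, array weights, a replicate block, removal of length and GC trends, the deposited log2 values, and each of the 4 libraries left out.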

Additional observations from a re-analysis of the deposited data

How the results depend on the processing

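Of 1016 called genes, 393 were called in all 4 fits that left out 1 KO library. In those fits 642 to 1745 genes were called in all, 251 to 535 higher in KO1 and 391 to 1210 higher in KO2, with the lowest total without KO2 replicate 2 and the highest without KO1 replicate 1. The fit on the 4 KO libraries alone called 1 gene (0 higher in KO1, 1 higher in KO2), and 0 and 1 list members. The deposited log2 values gave 23 (20 and 3), with 9 and 2 list members, the 10 libraries in 2% serum 617 (244 and 373), with 52 list members higher in KO2, and array weights, added after the data were seen, 544 (177 and 367), with 30 and 52 list members. The cause of these differences was not tested, beyond the smaller number of libraries in the first and the third. The array weight was 0.38 for each KO1 library, the lowest in the series, and 1.139 for each KO2 library. Of 21519 genes tested without a filter 1147 were called (398 and 749), and of 9819 with a mean of at least 50, 714 (272 and 442). Pseudocounts of 0.5 and 5 gave 1007 and 1059, quantile normalization 986, and removal of length and GC trends 961 of 13829 genes.

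Replicate numbers are shared by the clones in the labels. The correlation of the deviations of same-numbered libraries was 0.01, so the numbers do not pair the libraries, and a fit with the replicate number as a block called 992 genes (357 and 635).

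The difference of SETD2 was -0.13 with equal totals and between -0.01 (without KO1 replicate 2) and 0.10 with 1 library left out. Among genes not called, CDH1 went from -0.41 to 0.00 without KO2 replicate 2 (-0.83 to 0.00 with 1 library left out), and FN1 from 0.31 to 0.00 with quantile normalization, which gives the highest gene of every library the same value and so fixes this one. The sign changed for CUBN (-0.08 without KO1 replicate 1 to 1.03 without KO1 replicate 2) and NSD1 (0.08 with length and GC trends removed, -0.17 to 0.01 with 1 library left out, the highest without KO1 replicate 1). Genes at the floor in KO1 numbered 108, 7 with the other clone over 100 and 219 without KO1 replicate 2. Those at the floor in KO2 numbered 46, 21 when exactly 0 in both libraries, 5 with the other clone over 100 and 171 without KO1 replicate 2, and of the 21, 19% exceeded 10 in both libraries labelled KO2_Rescue. At a mean of at least 100 normalised counts the spread was 0.264 between the KO1 libraries and 0.152 between the KO2 libraries. Depth limits genes of a few reads, for which 1 library can decide a call.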

Other observations

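The genes of the mitochondrial genome were looked at after their values were seen. Of the 13 protein-coding genes, 11 had a positive log2 difference KO1 minus KO2, the median was 0.64, and 3 were called higher in KO1 and 0 higher in KO2. Among all 14585 genes tested, 6872 had a positive difference and 2.48% were called higher in KO1. The 3 called were MT-CYB, a subunit of complex III (1.11), and MT-ND4 and MT-ND4L, subunits of complex I (1.03 and 1.07). The call of MT-ND4 held in 3 of the 4 fits that left out 1 library, with a lowest value of 0.99. MT-CO1 and MT-CO3, subunits of complex IV, differed by 0.10 and -0.12, and MT-ND6, which is encoded on the other strand, by -0.17. The genes therefore did not differ by 1 common factor. With equal library totals 0 of the 13 were called.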
